A study of Mus musculus with 2 samples.

Results

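The miRNA genes named Mir297, Mir466, Mir467 and Mir669 form a large rodent cluster in an intron of Sfmbt2 on mouse chromosome 2, with relatives elsewhere in the genome. Members were taken as every row of the count tables whose Ensembl identifier has, in GENCODE M21, a symbol that starts with one of these 4 names. This gave 69 of the 1973 genes counted, of which 59 lay inside Sfmbt2 and 10 elsewhere. The rule uses gene names and positions.

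The libraries are microRNA-seq (sequencing of small RNA, here below 30 nt) of total RNA from the stomach of B6NCrl mouse embryos at 14.5 days. There is 1 group, untreated and with no engineered allele named in the labels, with 2 biological replicates. The labels describe each replicate as the stomach of 1 pup, collected on its own day, but also give the sex as male and female pooled. Collection day and replicate cannot be told apart, and no comparison of conditions exists. Whole stomach mixes muscle, mesenchyme, epithelium, nerve and blood, so fewer cells of a type and less RNA per cell cannot be told apart in any level given here.

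MicroRNAs are cut from hairpin precursors and loaded into Argonaute proteins, where bases 2 to 8 of the mature strand, the seed, pair with target mRNAs. Sfmbt2 codes for a Polycomb-group protein with MBT domains and is an imprinted gene, expressed from the paternal allele in extraembryonic tissue. Its intronic miRNA cluster arose in rodents by repeated duplication and is best known from placenta and embryonic stem cells. Many of its precursors are near copies of each other and are rich in alternating U and G or A and C.

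The gene rows of replicate 1 summed to 5004548 counts and those of replicate 2 to 4679914. A level below is the count scaled to 1000000 gene counts (CPM), and a mean ± SD is over the libraries (n = 2). Each count is 1 short read, so levels were not divided by precursor length. A gene was called detected at 10 or more counts in both libraries. A gene at 0 counts can still hold up to 3, equal to 0.599 and 0.641 CPM in replicates 1 and 2, for counting error only. Reads mapping to several places, 2437052 and 2263676, were assigned to no gene, and they outnumbered the member counts by 108 and 102 to 1. How many of them came from these miRNAs was not tested, so each level below is one of the reads that could be placed. Of the stomach lists, the muscle miRNAs Mir143 and Mir145a held 164146 and 146512 CPM, and the 5 epithelial miRNAs of the Mir200 family 41439 and 41482 CPM. Of the 3 neural markers, Mir9-2 and Mir124a-1 were at 0 in both libraries, so Mir137 alone held the list total of 1669 and 1832 CPM. Whether reads of the markers at 0 mapped to several places was not tested, so their absence is not read from this. Liver (Mir122) stood at 56.7 and 65.8 CPM and the 3 pancreas markers at 6.59 and 5.98 CPM. As a check for a library deposited more than once, the counts of 361 detected genes were compared and gave a chi-square of 75.8 per degree of freedom. The labels give the libraries as separate biological replicates.

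The RefSeq table (GRCm38.p6) held sequences for 9 of the 69 members, all outside Sfmbt2, with 8 mature strands and 4 hairpins. The mature strands are shown for the repeated U and G or A and C that these families have in common, on which the question of shared sequence turns. Capitals mark the seed, bases 2 to 8, and the sequences run 5′ to 3′.
mmu-miR-466i-3p: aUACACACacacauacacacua
mmu-miR-466k: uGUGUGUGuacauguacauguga
mmu-miR-466j: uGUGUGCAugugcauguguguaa
mmu-miR-466q: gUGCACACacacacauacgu
mmu-miR-467f: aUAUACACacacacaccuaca
mmu-miR-467g: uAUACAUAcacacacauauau
mmu-miR-467h: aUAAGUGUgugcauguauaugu
mmu-miR-669n: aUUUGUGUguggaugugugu

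The 8 strands carried 8 different seeds, so none of them shared a seed group. Their longest runs of 2 alternating bases were between 7 and 12 nt. None of the 8 strands was found whole in the precursor of a counted Sfmbt2 member, and miR-467h was found in 2 other annotated precursors. Only whole mature strands were searched for, so partial matches of the 8 strands were not counted. The 4 hairpins share stretches of 18 to 24 nt with the cluster. They are shown here for the longest such stretch and for the 1 hairpin that shared fewer than 20 nt with any other precursor. Capitals mark the longest stretch that also occurs, on either strand, in a precursor inside Sfmbt2.
Mir297-1: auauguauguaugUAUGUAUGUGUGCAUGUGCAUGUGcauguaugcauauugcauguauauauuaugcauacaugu
Mir669n: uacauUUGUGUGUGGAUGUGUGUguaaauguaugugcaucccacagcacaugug

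Mir297-1 (chr7:10958437-10958512, minus strand, in no annotated gene) is 76 nt long and shared 24 nt with the cluster, at positions 14 to 37. Mir669n (chr3:115979902-115979955, plus strand, in an intron of Slc30a7 on the opposite strand) is 54 nt long and shared 18 nt. These 18 nt lie within its mature strand of 20 nt shown above. In Mir466k the 22 nt shared with the cluster likewise lie within its mature strand of 23 nt.

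The cluster was expressed in the embryonic stomach at a moderate level. All 69 members together held 22501 counts in replicate 1 and 22207 in replicate 2. This is 4496 and 4745 CPM, or 4621 ± 176 CPM and 0.450% and 0.475% of the gene counts. Detected were 10 of the 69, or 14.5%, where 18.3% of all 1973 genes were. A further 13 members had a count but were not detected, and 46 were at 0 in both libraries. All 10 detected members lay inside Sfmbt2 and above 4 CPM in each library, and 6 of them were above 100 CPM in the mean of both.

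Sfmbt2 lies at chr2:10370510-10595253 on the plus strand (GRCm38). The 59 members inside it span chr2:10466663-10518279, or 51.6 kb, starting 96.2 kb downstream of the annotated gene start. They all lie on the strand of the gene, in 1 intron (chr2:10461473-10523944), which is intron 10 or intron 11 of the 2 protein-coding transcripts with 23 exons, and none overlaps an exon of the annotated transcripts. Nearly all member counts came from the strand of the precursor. The opposite strand held 0 of 22501 counts in replicate 1 and 2 of 22207 in replicate 2, so the own-strand share was 100% (exact 95% interval 99.98 to 100) and 99.99% (99.97 to 100). Both of these opposite-strand counts were at Mir467b.

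**Figure D1:**
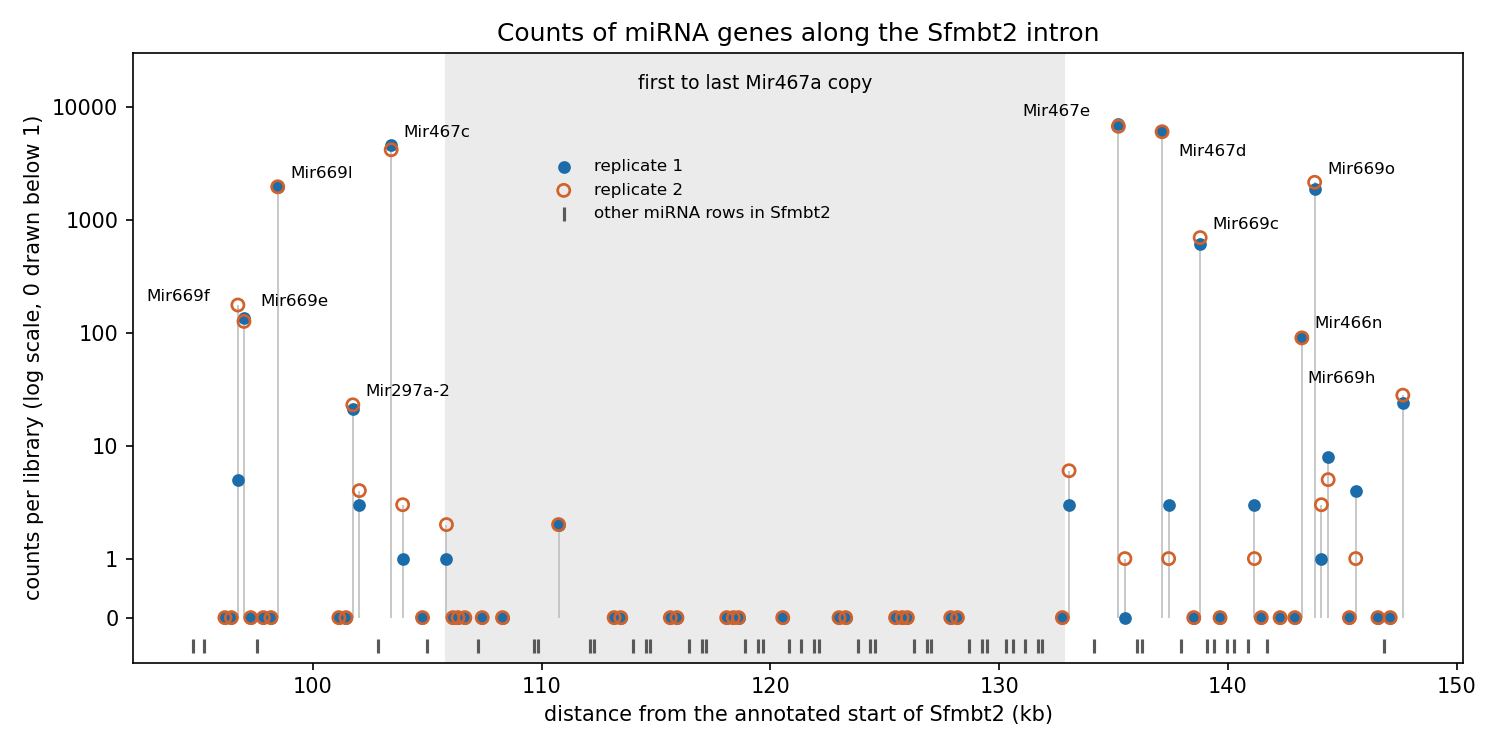
Counts of the 59 members inside Sfmbt2 (log scale, 0 drawn below 1) against the distance in kb from the annotated start of Sfmbt2, with filled points for replicate 1, open points for replicate 2, and ticks for the 48 other miRNA rows in the gene. Counts stand on both sides of the shaded 27.0 kb that run from the first to the last Mir467a copy, where no member passed 2 counts in a library.

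The Mir467 family led the cluster through 3 of its 17 members. Mir467e (chr2:10505721-10505807) had 7064 counts in replicate 1 and 6733 in replicate 2, or 1425 ± 19.2 CPM, and ranked 89 of all genes. Mir467d (chr2:10507630-10507714) had 6129 and 6024 counts, or 1256 ± 44.2 CPM. Mir467c (chr2:10473931-10474027) had 4573 and 4172 counts, or 903 ± 15.8 CPM. The order Mir467e, Mir467d, Mir467c was the same in both libraries and their values did not overlap. Together the 3 held 79.0% of all member counts in replicate 1 (exact 95% interval 78.4 to 79.5) and 76.2% in replicate 2 (75.7 to 76.8). Mir467e and Mir467d start 1.91 kb apart, while Mir467c starts 31.8 kb upstream of Mir467e, on the other side of the repeated Mir467a copies.

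The Mir669 family held the next levels, with 5 of 21 members detected and 1008 ± 127 CPM in all. Mir669o (chr2:10514300-10514395) had 1866 and 2149 counts, or 416 ± 61.0 CPM. Mir669l (chr2:10468971-10469068) had 1952 and 1960 counts, or 404 ± 20.3 CPM. These neighbours in the order changed places between the libraries, Mir669l being the higher in replicate 1 and Mir669o in replicate 2, so their levels did not differ beyond the spread. Mir669c (chr2:10509296-10509404) followed with 610 and 696 counts, or 135 ± 19.0 CPM. Mir669e (chr2:10467495-10467613) had 135 and 126 counts, or 26.9 ± 0.037 CPM. Mir669h (chr2:10518155-10518279), the last member of the cluster, had 24 and 28 counts, or 5.39 ± 0.84 CPM. Mir467c, Mir467d, Mir467e, Mir669l and Mir669o made up 95.9% of the member counts in replicate 1 and 94.7% in replicate 2.

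The 2 other families held far lower totals, although Mir466 has the most members among the rows counted. The 25 Mir466 members held 23.5 ± 0.67 CPM, and 1 was detected. Mir466n (chr2:10513741-10513834) had 92 and 90 counts, or 18.8 ± 0.60 CPM. Of the members that were not detected, Mir466h had 8 and 5 counts and Mir466b-3 had 3 and 6. The 6 Mir297 members held 4.96 ± 0.24 CPM, and 1 was detected, Mir297a-2 (chr2:10472254-10472343), with 21 and 23 counts, or 4.56 ± 0.51 CPM. Mir669h and Mir297a-2, neighbours in the order, overlapped between libraries, at 4.80 and 5.98 CPM against 4.20 and 4.91 CPM.

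**Figure D2:**
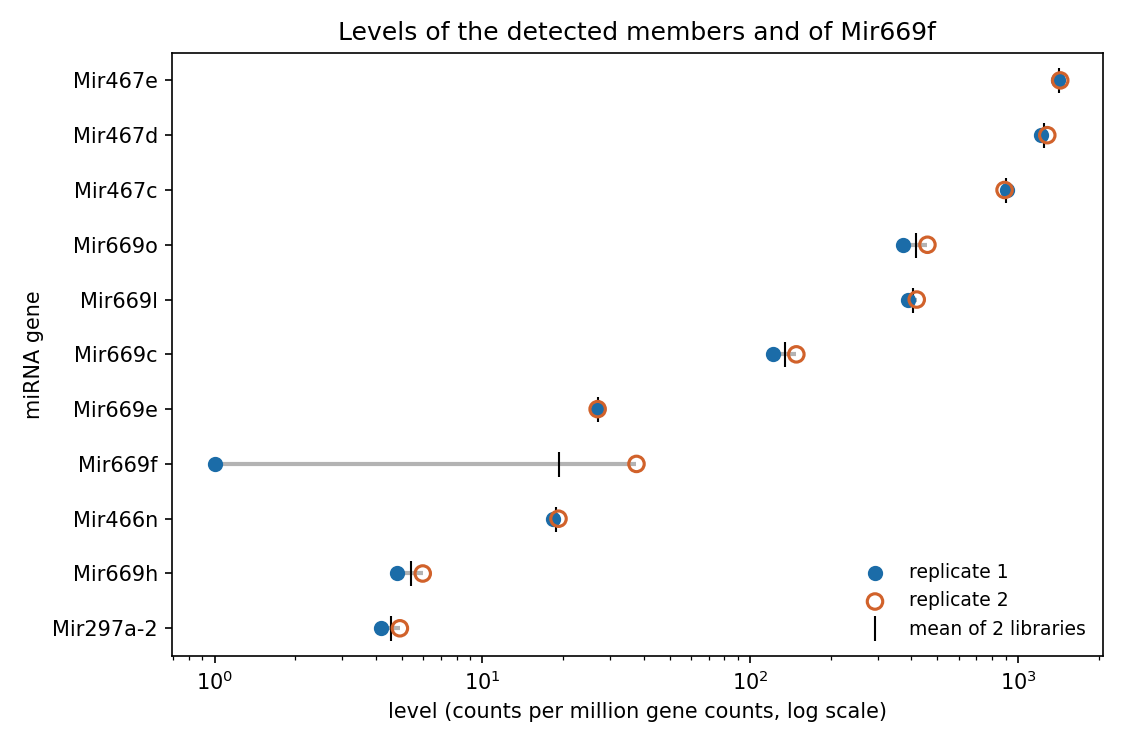
Level in CPM (log scale) of the 10 detected members and of Mir669f, with filled points for replicate 1, open points for replicate 2 and a vertical bar for the mean. The detected members run from 4.56 to 1425 CPM with the 2 libraries close together, and Mir669f stands apart at 0.999 CPM in replicate 1 and 37.6 CPM in replicate 2.

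Counts of reads that could be placed were distributed unevenly along the intron. Between the first and the last Mir467a copy (chr2:10476346-10503355), a stretch of 27.0 kb whose borders were chosen after the values were seen, 23 members held 3 counts in replicate 1 and 4 in replicate 2. Upstream of it 15 members held 1359 ± 31.4 CPM and 4 were detected. Downstream of it 21 members held 3261 ± 145 CPM and 6 were detected. This stretch accounted for 0.0133% of member counts in replicate 1 (exact 95% interval 0.0027 to 0.0390) and 0.0180% in replicate 2 (0.0049 to 0.0461). Within it the 10 Mir467a copies repeat with a median of 2462 nt between starts, 7 of the 9 gaps being between 2300 and 2600 nt. The 10 copies held 1 count in replicate 1 and 2 in replicate 2, all at Mir467a-1. Mir467b, inside the same stretch, had 2 counts in each library. In 18 members, all of them in this stretch, the whole precursor occurs in another annotated precursor. A read from within such a precursor maps to several places and was assigned to no gene. The low counts of these 18, and the intervals for the stretch, are therefore no measure of expression. Another 48 rows with Gm symbols, also annotated as miRNA genes, lie inside Sfmbt2 and held 14 and 9 counts in all, with no row above 5.

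Detected members often had an undetected member as their neighbour. Of the 58 consecutive pairs of members along the intron, 17 had 1 detected member, 40 had none, and in 1 pair, Mir466n and Mir669o, both were detected. With 10 of 59 members detected (16.9%), these counts are a description and neither clustering nor separation is read from them. Mir467e, at 7064 and 6733 counts, is followed after 198 nt by Mir466p, at 0 and 1. Mir467d, at 6129 and 6024, is followed after 203 nt by Mir466, at 3 and 1. Mir669o, at 1866 and 2149 counts, is followed after 199 nt by Mir466g. Mir466g had 1 and 3 counts, and all of its windows were unique among annotated precursors. In the opposite order, Mir466f-2 was at 0 in both libraries and lies 202 nt upstream of Mir669l, at 1952 and 1960 counts. Members named here only as neighbours were chosen after their values were seen. All of these neighbours lie on the same strand of the same intron, and whether the reads of the low ones went to several places was not tested.

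Sequence that precursors share bears directly on which reads can be placed. Of the 69 members, 67 were multi-copy, which means that 20 nt or more of the precursor occur in another of the 2202 annotated miRNA precursors. For each precursor the share of its 20-nt windows found in no other precursor was computed. The 2 unique members were Mir466g in Sfmbt2, with 1 and 3 counts, and Mir669n elsewhere, with 0 in both. All 10 detected members were therefore multi-copy, from Mir669e, which shared sequence with 1 other precursor and had 95% unique windows, to Mir669o, which shared with 56 and had 50.6%.

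Inside Sfmbt2 the members with counts were mostly those with more sequence of their own. The 10 detected members had a median of 54.7% unique windows (range 32.4 to 95), the 12 with counts but not detected 37.1%, and the 37 at 0 a median of 0%. Among the latter, 19 had no unique window at all. In the Mir467a stretch the median was 0% and the highest 32.7%, and all 10 Mir467a copies had 0%. Members on both sides of it had a median of 38.5%, and 10 of 36 were detected. Of 13 members with 50% or more unique windows, 8 were detected, and of the 46 others 2 were, Mir467d at 37.9% and Mir297a-2 at 32.4%. Spearman's rho between unique share and summed count was 0.65 across the 59 members, which share libraries, locus and ancestry, so it is given as a description. For the 18 members whose whole precursor occurs in another, a read from within it could not be placed. Their low counts therefore do not measure expression. What part of the low counts of the other members comes from reads that could not be placed was not tested.

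**Figure D3:**
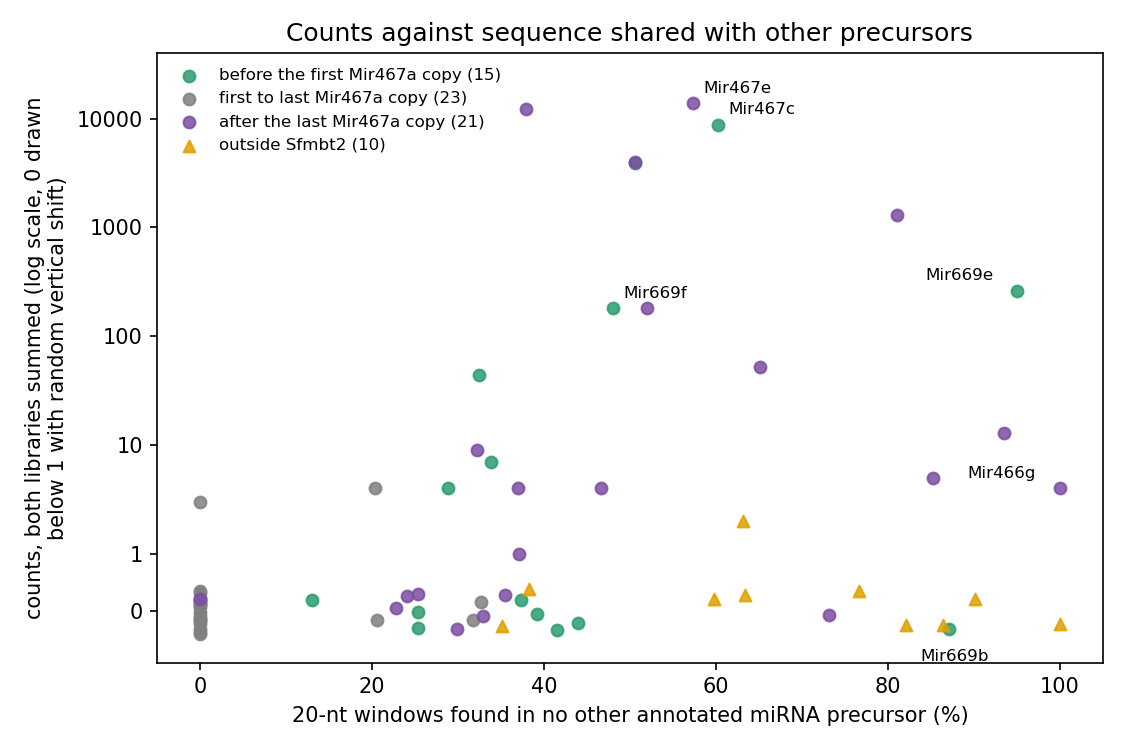
Counts of the 69 members, both libraries summed (log scale, 0 drawn below 1 with a random vertical shift), against the percent of 20-nt windows found in no other annotated miRNA precursor, coloured by position. Members between the first and the last Mir467a copy sit at or below 32.7% and near 0 counts. Mir669b at 87.2% and the members outside Sfmbt2, at 35.1 to 100%, also stay near 0 counts.

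Not every member with mostly unique sequence had counts. Mir669b (87.2% unique windows) and Mir669i (73.1%), named here after their values were seen, were at 0 in both libraries. Mir669b begins 176 nt after the end of Mir669e, which had 135 and 126 counts. The 10 members outside Sfmbt2 had a median of 70.0% unique windows, 8 of them at 50% or more, and none was detected. They shared 20 nt or more with a median of 23 other precursors (range 0 to 127). Mature miR-467g was found whole in 4 other annotated genes, miR-467h in 2 and miR-466i-3p in 1, and the remaining mature strands in none. Windows were compared with annotated miRNA precursors only, and the genome was not searched. They were taken over the whole precursor, and a read below 30 nt covers only part of it. Mir669n had 100% unique windows, yet 18 nt of its mature strand of 20 nt occur in the cluster. In Mir466k, with 76.7% unique windows, 22 nt of 23 nt do. The unique share therefore does not tell whether reads of a member could be placed.

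The members outside Sfmbt2 were all but absent from the counts. They held 1 count in replicate 1 and 1 in replicate 2, or 0.207 ± 0.0098 CPM, and the other 9 of the 10 were at 0. Both counts were at Mir466q (chr3:28419943-28420018), which lies in an intron of Tnik, a kinase gene, on the same strand. Mir467f, Mir466i, Mir466k, Mir669n and Mir467g lie in introns of Fxr2, Cdk13, Gm37240, Slc30a7 and Grk4, each on the strand opposite to the host gene. Mir466j, Mir466f-4, Mir297-1 and Mir467h overlap no annotated gene. Against this the Sfmbt2 members held 22500 and 22206 counts. The ratio was 22500 (exact 95% interval 4038 to 888742) in replicate 1 and 22206 (3985 to 877129) in replicate 2. This is 14.45 ± 0.01 on the log2 scale, with no test over 2 libraries. The total elsewhere was 1 count in each library, so its SD and that of the ratio do not measure precision. The totals are of 59 genes inside Sfmbt2 and 10 elsewhere.

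The detected members differed by small amounts between the libraries. The test for each gene was the two-sided exact conditional binomial test with Benjamini-Hochberg adjustment over all genes tested, and the ratio is replicate 2 over replicate 1. The test compares these libraries and not conditions, and its error is counting error only. By adjusted p under 0.05, 3 of the 10 detected members were called (30%), where 42.1% of all 361 detected genes were. With an absolute log2 ratio of 1 or more as well, 0 of 10 were called, where 1.11% of detected genes were. The minimum of 10 counts in both libraries leaves out genes that are low in 1 of them, such as Mir669f below. Small ratios among the 10 are therefore set in part by that minimum. The log2 ratios of the 10 ran from -0.04 to 0.32 with a median of 0.09. Over all detected genes the median was 0.04 and the 5th and 95th percentiles were -0.38 and 0.50.

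The 3 called members were all higher in replicate 2. Mir669o was higher by a log2 ratio of 0.30 (95% interval 0.21 to 0.39, adjusted p = 2.37e-10, exact test) and Mir669c by 0.29 (0.13 to 0.45, adjusted p = 0.00110, exact test). Both kept their call under each of the scalings run. Mir467d was higher by 0.07 (0.02 to 0.12, adjusted p = 0.0159, exact test), and this call depended on the scaling. With TMM factors (edgeR) 3 of the 10 were called, 2 higher in replicate 2 and 1 in replicate 1, where 46.5% of detected genes were. With DESeq2 size factors 4 were called, 2 in each direction, where 47.9% of detected genes were. These scalings shifted all log2 ratios by -0.05 and -0.09.

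Mir669f was the exception among the members. Mir669f (chr2:10467229-10467349, plus strand, 121 nt) had 5 counts in replicate 1 and 176 in replicate 2, or 0.999 and 37.6 CPM, all on its own strand. It did not reach 10 counts in both libraries and so was not among the 10. When every gene with a count in either library was tested, 4 of 23 members were called by adjusted p, where 20.5% of 722 genes were, and 1 of 23 with a log2 ratio of 1 or more, where 0.831% were. This 1 was Mir669f, at a log2 ratio of 5.23 (95% interval 3.98 to 6.87, adjusted p = 4.06e-47, exact test), or 37.6-fold (15.8 to 117). Of the 276 genes with at least its summed count of 181, none had a larger absolute log2 ratio. The next was Mir802, at 226 and 12 counts and a log2 ratio of -4.14, and after it Mir1247 at -0.81, both named after their values were seen. Mir669e, which starts 145 nt after the end of Mir669f, stood at 135 and 126 counts, with a log2 ratio of -0.00 (95% interval -0.36 to 0.36). Mir669f shared 20 nt or more with 44 other precursors and had 48.0% unique windows. In replicates 1 and 2 the liver marker stood at 56.7 and 65.8 CPM and the pancreas markers at 6.59 and 5.98 CPM. What made Mir669f differ between the libraries was not tested.

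**Figure D4:**
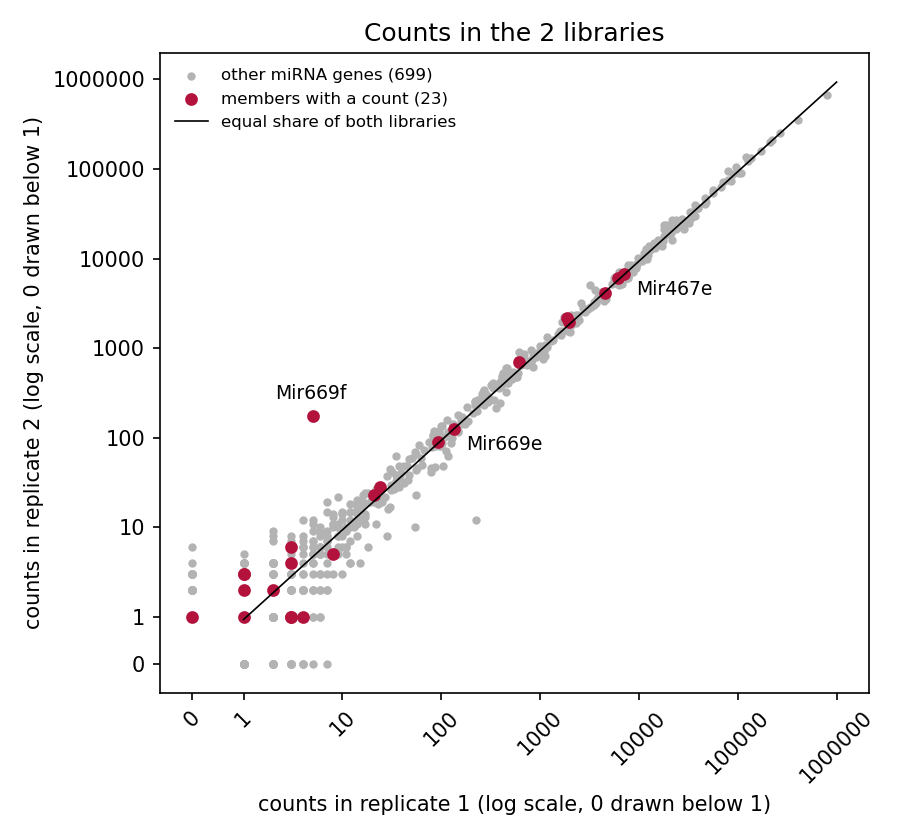
Counts in replicate 1 against counts in replicate 2 (log scales, 0 drawn below 1) for every gene with a count, with the 23 members in red and a line at equal shares of both libraries. The detected members lie along the line, and Mir669f lies far above it at 5 and 176 counts.

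Set beside other clusters of the same libraries, the Sfmbt2 members were neither silent nor abundant. The Dlk1-Dio3 miRNAs of chromosome 12, the other large imprinted cluster and one expressed from the maternal allele, held 80519 ± 3167 CPM with 50 of 60 genes detected and a median of 100% unique windows. The Mir17hg cluster, known from proliferating cells, held 33156 ± 3201 CPM with 5 of 5 detected. The Mir290 cluster, which like the Sfmbt2 miRNAs is known from early embryo and trophoblast stem cells, held 7.96 ± 0.52 CPM with 1 of 6 detected. Not every gene listed for the Mir17hg and Mir290 clusters was among the rows, so their totals are of the 5 and 6 genes counted. A rodent cluster on the X chromosome, known from testis, held 0.727 ± 0.18 CPM over 18 genes with 0 detected. The Sfmbt2 total of 4620 ± 176 CPM fell between these, far above the early-embryo and testis clusters and below the others in each library. Differences between these sets were not tested, as an exact test over 2 libraries has no power here, and the sets differ in how much of their sequence is shared.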

How the data were processed

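Small RNA below 30 nt was sequenced from 2 stomachs of 1 group. The authors' deposited unit is counts, as whole numbers per gene on mm10 with the GENCODE M4 annotation, per the file headers. No aligner or counter was given in the sources used here. The column of both strands was used. The 4 lines naming no gene (27.8% and 27.4% of reads mapped to several places, 12.5% and 13.5% were unmapped, 2.50% and 2.32% lay outside genes) were left out of totals and tests. Symbols and coordinates came from GENCODE M21, which matched 1894 of 1973 identifiers. It annotates 81 members, of which 12, all inside Sfmbt2 and 9 of them Mir669a copies, were not among the rows. The strand columns were read from the values: 1 of them held 98.9% of the counts of plus-strand genes and 95.2% of those of minus-strand genes in replicate 1.

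Libraries were compared per gene with an exact conditional binomial test (SciPy 1.17.1). Its code was run on simulated libraries with counting error only, which the test itself assumes. That run does not cover variation between replicates. A quasi-likelihood test has no contrast in 1 group. Scaling alternatives used TMM factors (edgeR 4.0.16) and DESeq2 1.42.0 size factors in R 4.3.3. Other alternatives changed the strand column, the count minimum, the denominator, the replicates and the length of shared sequence. Reads carry no molecular identifiers in the tables, so intervals and floors cover counting error only, and the spread between replicates may be technical in part. The members and lists were chosen with earlier results of these data known. The genes named are the detected members and, of the others, the 3 of highest count inside Sfmbt2 (Mir669f, Mir466h, Mir466b-3) and the 1 with counts elsewhere (Mir466q). Members elsewhere are also named for their sequence or position, and further members inside Sfmbt2 were named after their values were seen.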

Additional observations from a re-analysis of the deposited data

How the results depend on the processing

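Of 50 alternatives run on totals and counts of members, 40 left a total within its SD or a count within a fixed fold of the main count. Part of this agreement was fixed in advance. With 2 libraries, leaving out a replicate cannot move a total or the log2 ratio between locations beyond its SD. Own-strand member counts were nearly the same as the main counts. At a minimum of 1 count, 22 members were detected, 21 inside Sfmbt2 and 1 elsewhere. Leaving out a replicate gave 10 to 11 detected, in all and inside Sfmbt2 (11 without replicate 1, where Mir669f passed), totals of 4496 to 4745 CPM in each case, 0.200 to 0.214 CPM elsewhere, and log2 ratios of 14.44 to 14.46 between the locations. With multimapping reads in the denominator, the totals were 3111 CPM for all members, 3111 CPM inside Sfmbt2 and 0.139 CPM elsewhere. The total fell to 1037 CPM without Mir467c, Mir467d and Mir467e, an alternative added once the values were known. When the whole precursor had to be shared, 18 members were multi-copy in place of 67. Of the members with at least 50% unique windows, 8 of 13 were detected with 20-nt windows, 5 of 10 with 18 nt, 8 of 16 with 22 nt and 8 of 19 with 25 nt, the last 3 lengths also added later. With genes of a count in either library, 1 member passed a log2 ratio of 1.

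For single members, 40 of 50 alternatives kept direction and call. All changes came with the 3 scalings given below. Own-strand counts and the test of genes with a count in either library left the log2 ratios the same or nearly so. Those alternatives were therefore no check of direction. Mir467e changed sign to -0.0251 with TMM factors, -0.0627 with DESeq2 size factors, where it was called, and -0.0208 when the 5 most abundant genes left the totals. Mir467d changed sign to -0.0184 and Mir466n to -0.0252 with size factors. Mir467d lost its call under all 3 scalings, at 0.02 with TMM factors and without the 5 genes, and at -0.0184 with size factors. Mir467c was called under all 3 scalings, at -0.09, -0.13 and -0.08, higher in replicate 1. These scalings shift every ratio by -0.05, -0.09 and -0.05.

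Not run were the genome copies of the mature strands and the ratio of locations over unique precursors alone, which would compare 1 and 3 counts with 0. No paired analysis was possible because there is 1 group. Depth limits the members at 0 to a bound of 3 counts.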
